A study of Mus musculus with 7 samples.

Results

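Heat shock proteins and DnaJ proteins are the molecular chaperones of the cell, and their genes were followed here through mouse ES cells, the germ layers derived from them and adult tissues. The set held every gene whose symbol places it in the Hsp70, Hsp90, Hsp60 and Hsp10 families, among the small heat shock proteins or among the DnaJ proteins, and which had a probe set with a single symbol. It contained 69 of the 18194 genes measured, 42 of them Dnaj genes and 27 from the other families. No expression value was used to choose them.

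RNA was measured on Affymetrix Mouse Genome 430 2.0 arrays, with 1 array for each of 7 samples. SK7_ESC was the male mouse ES cell line SK7, which carries a GFP reporter under the Pdx1 promoter. Ect, End and Pme were ectoderm, endoderm and paraxial mesoderm that SK7 cells had formed in culture, so these 4 arrays come from a single line with the same transgene. Brain, Liver and Sk_muscle came from male ICR (CD-1) mice more than 9 weeks old, untreated as far as the sources state, and the labels list ICR and male for the SK7 samples too. Neither the labels nor the methods mention heat treatment, and how many animals gave each tissue is not stated. With 1 array a group there is no replicate error, so no comparison below carries a test and each describes these 7 arrays only.

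Hsp70 proteins bind exposed stretches of unfolded protein and release them again as they hydrolyze ATP. DnaJ proteins, also called J proteins or Hsp40s, deliver the clients and switch on that ATPase, and Hsp110 proteins exchange the spent ADP. Hsp90 works on proteins that are nearly folded, such as kinases and steroid receptors, while the small heat shock proteins hold denatured proteins without using ATP. The endoplasmic reticulum (ER) and the mitochondrion each have their own Hsp70 with its own partners. Separate programs raise these genes under stress. Heat shock factors act through heat shock elements in promoters of the cytosolic and mitochondrial chaperones. The unfolded protein response acts through ER stress elements in promoters of the ER chaperones.

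Promoter sequences of RefSeq (GRCm38.p6), each 250 bases before to 50 bases after a start, were at hand for 56 of the 69 genes and were searched on both strands for these elements. The ER stress element, searched as CCAAT and CCACG with any 9 bases between (CGTGG, 9 bases and ATTGG on the other strand), lay in 37 of 27025 genes with a promoter (0.137%), and 3 of these were chaperones of the set: Hspa5, Hsp90b1 and Dnajc3. All 3 act in the ER, among 9 ER chaperone genes with a promoter. Their 250 bases before the start are shown 5′ to 3′ because the 3 genes shared a high signal in Liver, described later. The ER genes Dnajb9 and Dnajb11 were also called higher in Liver, and their promoter windows held no match. The positions are chr2:34771840-34772089 on the plus strand for Hspa5, chr10:86705445-86705694 on the minus strand for Hsp90b1 and chr14:118937682-118937931 on the plus strand for Dnajc3. Capitals mark the matches, of which Hsp90b1 had 2, with 1 on each strand.
Hspa5: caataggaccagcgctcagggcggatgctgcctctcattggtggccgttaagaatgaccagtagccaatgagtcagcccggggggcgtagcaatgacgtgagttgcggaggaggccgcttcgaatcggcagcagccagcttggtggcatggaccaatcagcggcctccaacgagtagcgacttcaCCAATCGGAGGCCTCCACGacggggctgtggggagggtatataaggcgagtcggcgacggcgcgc
Hsp90b1: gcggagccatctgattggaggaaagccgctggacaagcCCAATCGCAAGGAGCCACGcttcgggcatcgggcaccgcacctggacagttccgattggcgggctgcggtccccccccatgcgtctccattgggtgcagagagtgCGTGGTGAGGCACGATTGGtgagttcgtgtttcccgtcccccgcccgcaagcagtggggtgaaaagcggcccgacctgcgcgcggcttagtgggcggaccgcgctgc
Dnajc3: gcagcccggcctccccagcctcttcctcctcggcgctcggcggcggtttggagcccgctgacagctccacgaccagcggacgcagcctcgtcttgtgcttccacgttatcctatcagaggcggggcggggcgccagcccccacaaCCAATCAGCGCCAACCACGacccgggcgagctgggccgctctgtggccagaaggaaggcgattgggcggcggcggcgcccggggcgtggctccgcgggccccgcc

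The heat shock element, searched as the units GAA, TTC and GAA with any 2 bases between neighboring units (TTC, GAA and TTC on the other strand), lay in 179 of 27025 genes (0.662%), and 4 were of the set: Hspd1, Hspe1, Hsph1 and Dnajb6. Hspd1 and Hspe1, which encode the mitochondrial chaperonin and its lid, are neighbors that overlap in the RefSeq annotation and are read in opposite directions. Their promoter windows shared a single stretch of matches at chr1:55088053-55088082, shown on the strand of each gene, where matches on both strands overlapped. The match of Hsph1 lay at chr5:149636287-149636308 on the minus strand, after the start of the gene, and that of Dnajb6 at chr5:29735844-29735872 on the plus strand. These matches are shown because the genes behaved differently from one another across the arrays. Capitals mark the matches.
Hspd1: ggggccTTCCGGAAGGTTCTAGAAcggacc
Hspe1: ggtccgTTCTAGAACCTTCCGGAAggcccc
Hsph1: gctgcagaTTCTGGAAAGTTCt
Dnajb6: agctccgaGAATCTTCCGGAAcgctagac
The windows of Hspa1a, Hspa1b, Hspb1, Dnaja1 and Dnajb1, which belong to the list of heat-induced genes described later, held no match. A match is a run of letters and not a binding site. A gene with no match in this window may hold an element elsewhere or in other letters than those searched.

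The arrays were checked against cell type markers. The pluripotency list was above background for 4 of 4 genes in SK7_ESC, 2 of 4 in End and none in Ect and Pme. Markers of their label were above background for 3 of 4 genes in Ect and 4 of 4 in End, but for 1 of 4 in Pme, where Pdgfra reached 1062 and Tbx6 (17.7), Meox1 (16.0) and Tcf15 (29.1) did not pass. The identity of Pme as paraxial mesoderm is therefore carried by its label and by Pdgfra. Pdgfra was 4.58-fold higher there than in Brain, the next array, but passed in 6 of the 7 arrays. Tcf15 was higher in SK7_ESC (111) and Ect (125) than in Pme, and 2 of 4 genes of this list passed in SK7_ESC. Neuron markers in Brain (4 of 4), hepatocyte markers in Liver (3 of 3) and skeletal fiber markers in Sk_muscle (4 of 4) were all above background, and cardiac markers in Sk_muscle were not (0 of 4). Sk_muscle also held the adipocyte markers Adipoq at 688 and Fabp4 at 6653 and the hepatocyte marker Alb at 304. In mixed samples such as these, fewer cells of a type and less RNA per cell cannot be told apart.

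A signal above 50, in the authors' units that set the average of an array to 100, was taken as above background. By this limit, 63 of the 69 genes (91.3%) passed in 1 array or more, against 68.5% of all genes, and 41 (59.4%) in every array, against 27.8%. The number above background was 46 in SK7_ESC (66.7%, with 44.4% of all genes), 47 in Ect (68.1%, with 47.1%), 44 in End (63.8%, with 45.5%) and 48 in Pme (69.6%, with 47.4%). It was 56 in Brain (81.2%, with 49.9%), 52 in Liver (75.4%, with 42.9%) and 59 in Sk_muscle (85.5%, with 43.3%). The chaperone genes were thus above background more often than genes at large in each of the 7 arrays, and most often in Sk_muscle. The 6 genes that never passed were Hspa12b, Hspb9, Dnajb3, Dnajb7, Dnajb8 and Dnajb13, and several of these are known mainly from testis or cilia.

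**Figure D1:**
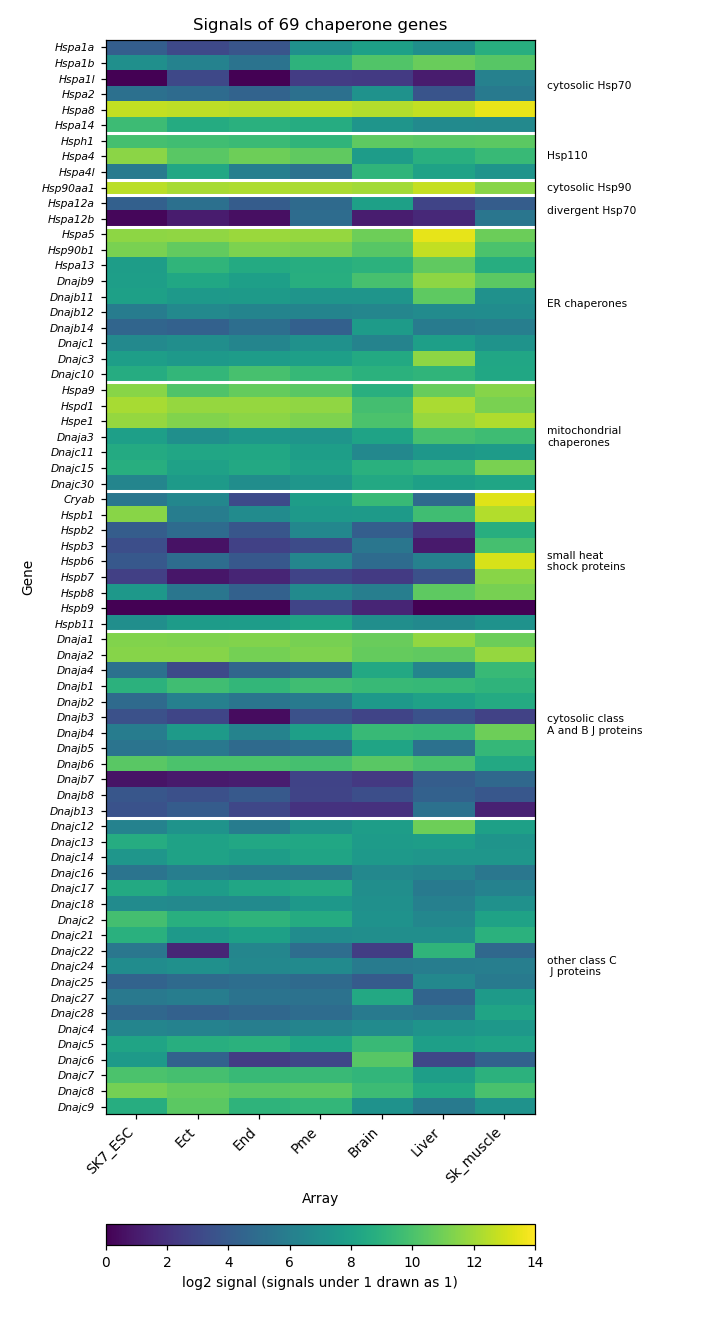
Signal of each of the 69 chaperone genes (rows, grouped by role) in the 7 arrays (columns), colored by log2 signal, with signals under 1 drawn as 1. Yellow cells stand out in Liver among the ER chaperones, where Hspa5 reached 11329, and in Sk_muscle among the small heat shock proteins, where Cryab reached 10203.

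A gene was called higher or lower when its signal differed at least 2-fold between the arrays compared, with any signal under 50 counted as 50. A fold against such a signal is a lower limit. The 3 germ layer comparisons share the SK7_ESC array. In Ect, 5 of the 69 genes (7.25%) were called higher than in SK7_ESC, against 6.62% of all genes, and 6 (8.7%) lower, against 4.89%. In End, 1 gene (1.45%) was higher, against 4.89%, and 4 (5.8%) were lower, against 3.81%. In Pme, 5 (7.25%) were higher, against 6.74%, and 5 (7.25%) lower, against 4.55%. The share called lower was above that of all genes in each layer and the share called higher was under it in End, in counts of 1 to 6 genes. The median log2 ratio of the chaperone genes above background was 0.0 in each layer, as it was for all genes. With the arrays scaled to the same median, the split of 5 higher and 6 lower in Ect became 5 and 10, and that of 5 and 5 in Pme became 5 and 9. All genes shifted the same way. Their split went from 1204 higher and 889 lower to 968 and 1356 in Ect, and from 1227 and 827 to 983 and 1292 in Pme. In all, 17 of the 69 genes (24.6%) were called in at least 1 layer, against 18.6% of all genes.

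**Figure D2:**
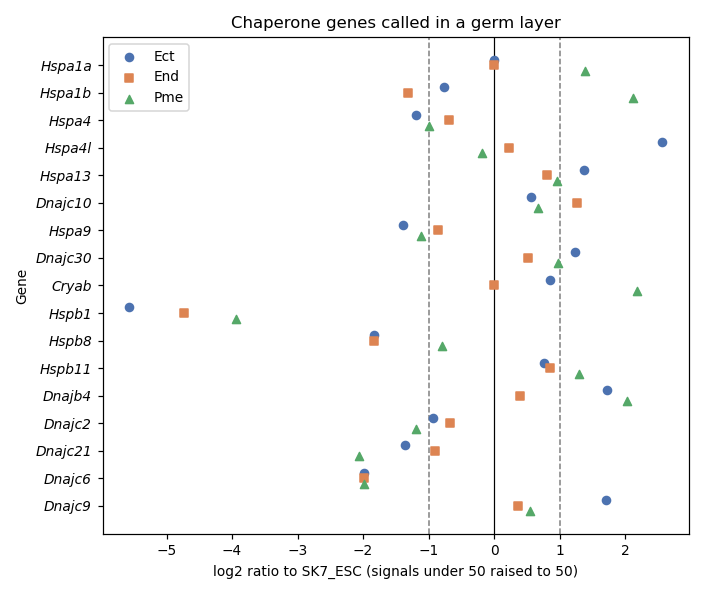
Log2 ratio to SK7_ESC (horizontal axis, signals under 50 raised to 50) of the 17 chaperone genes (rows) called in Ect (circles), End (squares) or Pme (triangles), with dashed lines at 2-fold in either direction. Hspb1 lies far to the left in all 3 layers, while Hspa1b lies to the right in Pme and to the left in End.

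Among the adult tissues, each array was set against both others. Brain had 6 genes called higher than in both (8.7%, against 10.8% of all genes) and 7 lower (10.1%, against 4.08%). Liver had 9 higher (13%, against 7.71%) and 7 lower (10.1%, against 4.18%). Sk_muscle had 12 higher (17.4%, against 7.47%) and 1 lower (1.45%, against 2.62%). The log2 ratio of a tissue was taken to the average log2 signal of the other tissues, and its median over the chaperone genes above background was -0.37 in Brain (0.0 for all genes), -0.17 in Liver (-0.11 for all genes) and 0.21 in Sk_muscle (-0.03 for all genes). With the arrays scaled to the same median, the split in Brain became 4 higher and 9 lower, while that of all genes went from 1972 and 743 to 1460 and 1198. These 3 comparisons share their arrays, so a gene high in a single tissue lowers the ratio of the other tissues.

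Across all 7 arrays, 22 genes (31.9%, against 20.6% of all genes) were at least 2-fold higher in 1 array than in each of the others. Sk_muscle held 9 of these (background 5%), Liver 8 (background 5.6%), Brain 4 (background 6.69%) and Ect 1 (background 0.698%). SK7_ESC (background 1.19%), End (background 0.726%) and Pme (background 0.737%) held 0. Fewer were at least 2-fold lower in 1 array than in each of the others: 4 in Brain (background 0.995%), 3 in Liver (background 1.43%), 1 in Sk_muscle (background 1%), and 0 in SK7_ESC (background 0.319%), Ect (background 0.066%), End (background 0.0605%) and Pme (background 0.0055%). When the 4 cultured arrays were set against the 3 adult arrays, 2 genes (Hspa14 and Dnajc9) were higher in every cultured array (2.9%, against 4.19% of all genes) and 4 (Hspa1b, Dnajb2, Dnajb4 and Dnajb9) were lower in every cultured array (5.8%, against 0.709%). This split turned with the scaling: with arrays scaled to the same median, 4 genes were higher and 1 lower in culture, and Hspa1b, Dnajb2 and Dnajb9 lost their calls. All genes went from 762 higher and 129 lower in culture to 1031 and 70.

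Within the cytosolic Hsp70 genes, the stress-inducible pair differed most between arrays. Hspa8, the constitutive Hsc70, gave signals of 6794 in SK7_ESC, 6211 in Ect, 5842 in End, 6438 in Pme, 5309 in Brain, 6646 in Liver and 11698 in Sk_muscle. All 7 arrays lay within 2.2-fold of each other. Hspa1b, a heat-inducible Hsp70, gave signals of 124 in SK7_ESC, 73.4 in Ect, 40.5 in End, 540.4 in Pme, 1177 in Brain, 1779 in Liver and 1305 in Sk_muscle. The adult arrays did not overlap the cultured ones, and Pme was the highest of the cultured arrays, 4.34-fold above SK7_ESC, while End was at least 2.49-fold below it. The End call was lost with the mean over probe sets, at a log2 ratio of -0.73, and without probe sets that may read several transcripts, at -0.16. The copy next to it, Hspa1a, gave 18.4 in SK7_ESC, 8.5 in Ect, 12.8 in End, 131 in Pme, 246 in Brain, 128 in Liver and 443 in Sk_muscle, which was above background in Pme and the adult tissues only. Hspa1a and Hspa1b are near-identical neighbors with no coding gene between them, so their probes may read both, and their separate signals are uncertain. Fibroblast markers were also highest among the cultured arrays in Pme, with 3 of 4 above background and a summed signal of 4767 against 285 to 1384 in the other 3. Smooth muscle markers summed to 2877 there against 234 to 535, with 2 of 4 above background in each of the 4 cultured arrays. Acta2 gave 2383 of the Pme sum, while Myh11 (7.7) and Cnn1 (21.4) were under background. Endothelial markers summed to 206 in Pme against 28.1 to 123, with 2 of 4 above background. Cdh5 was at 1.5 in Pme, and Pecam1 was lower in Pme (42.7) than in SK7_ESC (89.0). The part of these cells in the Hspa1a and Hspa1b signals was not tested.

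Hspa14, an Hsp70 that works at the ribosome, went the other way. Its signal was 765 in SK7_ESC, 394 in Ect, 470.5 in End, 412 in Pme, 157 in Brain, 104 in Liver and 95.3 in Sk_muscle. Every cultured array was at least 2.51-fold above every adult array, and the highest was SK7_ESC. Dnajc2, the J protein that acts beside Hspa14 on ribosomes, gave signals of 885 in SK7_ESC, 464 in Ect, 552 in End, 387 in Pme, 139.8 in Brain, 90.8 in Liver and 271 in Sk_muscle, with SK7_ESC again highest and Pme 2.29-fold below it, and the cultured and adult ranges did not overlap there either. Hspa2, known for its role in sperm formation, was highest in Brain, at 36.0 in SK7_ESC, 29.6 in Ect, 21.6 in End, 35.6 in Pme, 143 in Brain, 12.5 in Liver and 52.1 in Sk_muscle, which is 2.74-fold above the next array. Hspa1l, next to Hspa1a in the genome, was above background in Sk_muscle alone, at 70.0.

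The Hsp110 genes, which supply the nucleotide exchange for Hsp70, did not move together. Hspa4 gave signals of 3060.4 in SK7_ESC, 1343 in Ect, 1896 in End, 1537 in Pme, 216 in Brain, 461 in Liver and 679 in Sk_muscle. It was highest in SK7_ESC and 2.28-fold lower in Ect, and Brain was 2.14-fold below the dimmer of the other tissues. The log2 ratio of Brain to the average of the other tissues was -1.38 by this probe set and 0.38 by the mean over all probe sets of Hspa4. That mean takes in a probe set under background in all 7 arrays, at 11.8 in Brain, 15.3 in Liver and 0.8 in Sk_muscle. Of the 2 other probe sets above background, 0 were called lower in Brain and 0 lower in Ect. The brighter of them read 340 in Brain, 196 in Liver and 148 in Sk_muscle, and the dimmer 80.2, 61.0 and 84.2. Hspa4l was low in SK7_ESC and high in Brain and Ect, with 56.7 in SK7_ESC, 337 in Ect, 66.1 in End, 39.4 in Pme, 579.5 in Brain, 266 in Liver and 154 in Sk_muscle. Ect exceeded SK7_ESC 5.94-fold, and the signal was 2.18-fold higher in Brain than in Liver. Hsph1, with a match to the heat shock element after its start, had 941 in SK7_ESC, 839.6 in Ect, 755 in End, 576 in Pme, 1448 in Brain, 1364 in Liver and 1412 in Sk_muscle, and its 3 adult arrays lay above all 4 cultured ones without reaching 2-fold. By this probe set of Hsph1, the 3 tissues lay within 1.06-fold of each other. Its other probe set read 1339 in Brain, 935.5 in Liver and 882 in Sk_muscle, with SK7_ESC at 862.

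Of the cytosolic Hsp90 genes, Hsp90aa1, the inducible form, was analyzed here. By its brightest probe set, it was called in none of the comparisons. Its signal was 6011 in SK7_ESC, 4635 in Ect, 4952 in End, 4705 in Pme, 4186 in Brain, 6879 in Liver and 2945 in Sk_muscle. Liver was highest and Sk_muscle lowest, 2.34-fold apart. Only 1 of the 3 probe sets of Hsp90aa1 above background had Liver highest, and the others had SK7_ESC highest. A further probe set passed the 2-fold limit, with 6044 in SK7_ESC and 2992 in Ect. It also did so between Sk_muscle, at 872, and Brain, the next lowest array, at 2223. The divergent Hsp70 gene Hspa12a was above background in Brain alone, with 19.8 in SK7_ESC, 35.8 in Ect, 17.1 in End, 28.2 in Pme, 248 in Brain, 7.2 in Liver and 17.8 in Sk_muscle, at least 4.96-fold above every other array.

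**Figure D3:**
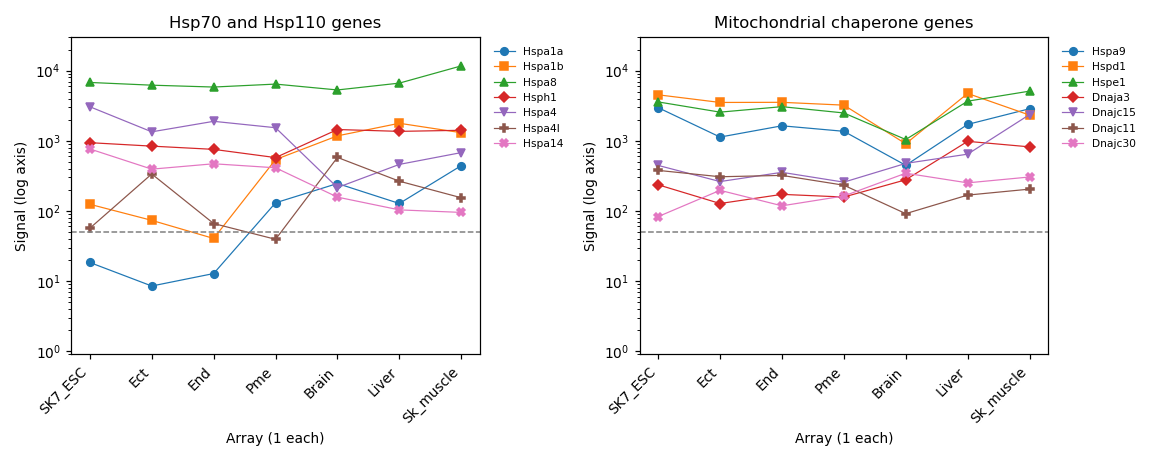
Signal (log axis) of Hsp70 and Hsp110 genes on the left and of mitochondrial chaperone genes on the right in the 7 arrays, 1 each; the dashed line marks a signal of 50, and thin lines only join the points of a gene. Hspa1a and Hspa1b are lowest in SK7_ESC, Ect and End, and Hspa9, Hspd1 and Hspe1 are lowest in Brain.

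The J proteins of classes A and B that partner cytosolic Hsp70 included genes with little difference between the arrays and a few that were high in Sk_muscle. Dnaja1, a farnesylated partner of Hsc70, gave signals of 2609.8 in SK7_ESC, 2493 in Ect, 2602 in End, 2247 in Pme, 1818 in Brain, 3449 in Liver and 1886 in Sk_muscle. Dnaja2 had 2774 in SK7_ESC, 2785 in Ect, 2193 in End, 2523 in Pme, 1664 in Brain, 1513 in Liver and 3485 in Sk_muscle and was 2.09-fold higher in Sk_muscle than in Brain. Dnajb1, the classic inducible Hsp40, stayed between 511 in SK7_ESC and 835 in Ect. Other probe sets of Dnaja1 ranged more widely, from 487 in SK7_ESC to 2151 in Liver and from 385 in Sk_muscle to 1272 in Brain. A dim probe set of Dnaja2 did so too, from 33.7 in Liver to 240 in Pme. By the probe set that represents each gene, none of Dnaja1, Dnaja2 and Dnajb1 varied by more than 2.3-fold over the 7 arrays. In contrast, Dnajb4 gave signals of 58.9 in SK7_ESC, 195 in Ect, 77.6 in End, 240.2 in Pme, 699.5 in Brain, 645 in Liver and 1906 in Sk_muscle, so that every adult array was at least 2.69-fold above every cultured array, with Ect 3.31-fold and Pme 4.08-fold above SK7_ESC.

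Dnajb5 and Dnaja4 shared the pattern of high Sk_muscle and Brain. The Dnajb5 signal was 41.9 in SK7_ESC, 48.5 in Ect, 28.3 in End, 35.1 in Pme, 292 in Brain, 37.3 in Liver and 640.4 in Sk_muscle, which was under background in all 4 cultured arrays and in Liver. For Dnaja4 it was 37.5 in SK7_ESC, 8.7 in Ect, 24.2 in End, 34.2 in Pme, 344 in Brain, 81.5 in Liver and 679 in Sk_muscle, and Liver was 4.22-fold below Brain. Dnajb2, whose product is best known from neurons, gave 28.3 in SK7_ESC, 68.5 in Ect, 43.0 in End, 52.7 in Pme, 185 in Brain, 259.5 in Liver and 372 in Sk_muscle, with the highest signal in Sk_muscle and all 3 tissues at least 2.7-fold above the cultured arrays. Dnajb6, which keeps aggregation-prone proteins soluble and whose promoter window holds a match to the heat shock element, went against its group: 1382 in SK7_ESC, 1052 in Ect, 1063 in End, 939 in Pme, 1349 in Brain, 1017 in Liver and 345 in Sk_muscle. It was the only chaperone gene called lower in Sk_muscle than in both other tissues, 2.95-fold, but another of its probe sets, at 127 in Brain and 82.8 in Liver, was called higher in Sk_muscle. The 4 genes of this group at the bottom (Dnajb3, Dnajb7, Dnajb8 and Dnajb13) were under background throughout.

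Class C J proteins share little beyond the J domain, and their patterns were as varied as their roles. Dnajc6, the auxilin that strips clathrin from vesicles in neurons, gave signals of 198 in SK7_ESC, 21.5 in Ect, 5.6 in End, 7.8 in Pme, 1340.1 in Brain, 7.9 in Liver and 21.2 in Sk_muscle. Brain was 6.78-fold above SK7_ESC, the only other array above background, and all 3 germ layers were at least 3.95-fold below SK7_ESC. Dnajc5, the cysteine string protein of synaptic vesicles, had 293 in SK7_ESC, 446 in Ect, 494 in End, 304 in Pme, 725 in Brain, 242 in Liver and 281 in Sk_muscle and was 2.58-fold higher in Brain than in Sk_muscle. Dnajc27 was also highest in Brain, at 50.4 in SK7_ESC, 60.2 in Ect, 40.2 in End, 38.9 in Pme, 349 in Brain, 23.1 in Liver and 195 in Sk_muscle, where Liver was at least 3.9-fold below Sk_muscle. Neuron markers summed to 11144 and glia markers to 4669 in Brain, and the highest sums in the other arrays were 275 in Ect and 262 in Sk_muscle. Fibroblast markers summed to 1999.5 in Brain, with 2 of 4 above background. Thy1 gave 1771 of this sum and Dcn 177, while Col1a1 (9.5) and Col1a2 (41.5) were under background. The part of these cells in the Brain signals was not tested.

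Liver had its own class C genes. Dnajc12, which binds the aromatic amino acid hydroxylases, gave signals of 74.3 in SK7_ESC, 147 in Ect, 58.3 in End, 147 in Pme, 222 in Brain, 1941 in Liver and 245 in Sk_muscle, and Liver was 7.91-fold above the next array. Dnajc22 had 47.3 in SK7_ESC, 2.8 in Ect, 84.9 in End, 32.0 in Pme, 5.9 in Brain, 577 in Liver and 26.5 in Sk_muscle, where End was the only other array above background and Liver was 6.8-fold above it. Dnajc7 and Dnajc8 were lowest in Liver instead: Dnajc8, found in spliceosomes, had 2194 in SK7_ESC, 1633 in Ect, 1343 in End, 1440.2 in Pme, 769 in Brain, 369 in Liver and 1002 in Sk_muscle, and Liver was 2.09-fold below Brain, the next lowest. Dnajc7, which binds Hsp70 and Hsp90 through its TPR repeats, was 2.22-fold lower in Liver (229) than in Sk_muscle (508), with the other arrays between 594 and 1035.

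Dnajc9, which handles histones H3 and H4, was the only chaperone gene called highest in a germ layer. It gave signals of 429.9 in SK7_ESC, 1403 in Ect, 557 in End, 626 in Pme, 142 in Brain, 51.6 in Liver and 142 in Sk_muscle. Ect was 2.24-fold above Pme and 3.26-fold above SK7_ESC, and every cultured array was at least 3.02-fold above every adult one. Dnajc21, needed for making the large ribosomal subunit, was 2.58-fold lower in Ect and 4.16-fold lower in Pme than in SK7_ESC, with 469 in SK7_ESC, 182 in Ect, 249.9 in End, 113 in Pme, 123 in Brain, 119.8 in Liver and 497 in Sk_muscle. Sk_muscle and SK7_ESC were the highest arrays and differed by 1.06-fold. Dnajc28 was 5.48-fold higher in Sk_muscle (291) than in Brain (53.1), and all other arrays were under background. The remaining class C genes were Dnajc4, Dnajc13, Dnajc14, Dnajc16, Dnajc17, Dnajc18, Dnajc24 and Dnajc25. By the probe set that represents each, none was called in layers against SK7_ESC, a tissue against both others, or cultured against adult arrays. Another probe set of Dnajc18 read 249.9 in Brain and between 24.3 and 50.3 in the other arrays.

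Most ER chaperones were higher in Liver than in any other array. Of 10 genes, 6 were higher in Liver than in both other tissues (against 7.71% of all genes) and 0 lower (against 4.18%). Their median log2 ratio was 1.57 against 0.0 over all genes. The same 6 were higher in Liver than in all 6 other arrays (against 5.6%). Hspa5, the ER Hsp70 also known as BiP, gave signals of 3100.4 in SK7_ESC, 3262 in Ect, 3796 in End, 3540.4 in Pme, 1959 in Brain, 11329 in Liver and 1851 in Sk_muscle. Hsp90b1, the ER Hsp90, had 2351 in SK7_ESC, 1609.5 in Ect, 2391 in End, 2253 in Pme, 1296 in Brain, 6818 in Liver and 1051 in Sk_muscle. In both, Liver stood alone, 2.98-fold and 2.85-fold above End, the next array, and Brain and Sk_muscle were the lowest arrays. A further probe set of Hspa5 did not show this, with 153 in Liver and between 142 and 254 in the other arrays, while its remaining probe set was called the same way. With quantile normalization, Hspa5, Hsp90b1 and Dnajb9 no longer led all 6 other arrays by 2-fold.

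The J proteins that work with Hspa5 showed larger differences. Dnajc3, which holds unfolded proteins for Hspa5 in the ER lumen, gave signals of 230.0 in SK7_ESC, 184 in Ect, 215 in End, 239 in Pme, 362 in Brain, 3159 in Liver and 317 in Sk_muscle. Liver was 8.73-fold above Brain, the next array, and all 5 probe sets of the gene had Liver highest. Dnajb11, the J protein that binds nascent chains, had 245 in SK7_ESC, 190.0 in Ect, 200.5 in End, 157 in Pme, 159 in Brain, 1504 in Liver and 138 in Sk_muscle, with Liver 6.14-fold above SK7_ESC. Dnajb9, which directs misfolded proteins to degradation, had 229 in SK7_ESC, 327 in Ect, 239 in End, 442 in Pme, 963 in Brain, 3102 in Liver and 1431 in Sk_muscle. Here the adult tissues were all above the cultured arrays by at least 2.18-fold, and Liver was 2.17-fold above Sk_muscle. Hspa13, a short Hsp70 of microsomes, had 218 in SK7_ESC, 563 in Ect, 379 in End, 426 in Pme, 503 in Brain, 1525 in Liver and 419.7 in Sk_muscle, where Liver was 2.71-fold above Ect and Ect was 2.58-fold above SK7_ESC.

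The 4 other ER genes did not follow. Dnajc10, an ER reductase that unties wrong disulfides, was highest in End, with 411 in SK7_ESC, 611 in Ect, 991 in End, 655 in Pme, 498 in Brain, 573 in Liver and 322 in Sk_muscle, and was the only chaperone gene called higher in End than in SK7_ESC (2.41-fold). Dnajb14, a J protein of the ER membrane, was highest in Brain, with 23.6 in SK7_ESC, 20.7 in Ect, 33.1 in End, 19.6 in Pme, 204 in Brain, 55.8 in Liver and 62.5 in Sk_muscle, 3.27-fold above the next array. Dnajb12 stayed between 59.5 and 112 in the 7 arrays, and Dnajc1 was highest in Liver (238) without a 2-fold lead over Sk_muscle (144).

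The other folding genes of the ER, 19 of them, were higher in Liver than in both other tissues in 16 cases (against 7.71% of all genes). They were lower in 0 (against 4.18%), with a median log2 ratio of 2.77 against 0.0. The 3 with the widest range were Creld2, Sdf2l1 and Herpud1. Creld2 gave signals of 429 in SK7_ESC, 209 in Ect, 310.3 in End, 132 in Pme, 107 in Brain, 4945 in Liver and 107 in Sk_muscle. Sdf2l1, a companion of Dnajb11, had 186 in SK7_ESC, 123 in Ect, 146 in End, 71.5 in Pme, 123 in Brain, 2263 in Liver and 41.5 in Sk_muscle, and Herpud1, part of the machinery that removes misfolded ER proteins, had 136 in SK7_ESC, 167 in Ect, 338 in End, 422 in Pme, 372 in Brain, 5878 in Liver and 1212 in Sk_muscle. In all 3 Liver was above every other array, by 11.5-fold for Creld2, 12.2-fold for Sdf2l1 and 4.85-fold for Herpud1. The regulators of the ER stress response were divided in their calls, as seen after their values were known. Xbp1, a transcription factor of this response, was called higher in Liver, at 7119, which was 4.29-fold above Brain, the next array. The 3 genes of the list not called in Liver were Atf4, Atf6 and Ddit3, which also regulate that response. Atf4 had 720.0 in Liver and 2413 in Sk_muscle. Ddit3, a gene of the late unfolded protein response, had 166 in Liver, 142 in Brain, 96.6 in Sk_muscle and 327 in Pme. Atf6 had 247 in Liver, 190.5 in Brain and 137 in Sk_muscle. Among the tissues, Ddit3 and Atf6 were thus highest in Liver without a 2-fold lead. The ER stress element lay in 5 of the 15 partner genes with a promoter (Calr, Canx, Pdia6, Creld2 and Syvn1). Hepatocyte markers summed to 37389 in Liver. Fibroblast markers reached 2246 there (2 of 4 above background), of which Dcn gave 2149 and Col1a1 1.5. Adipocyte markers reached 332, endothelial markers 300.3 and leukocyte markers 225, and the part of these cells in the ER signals was not tested.

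**Figure D4:**
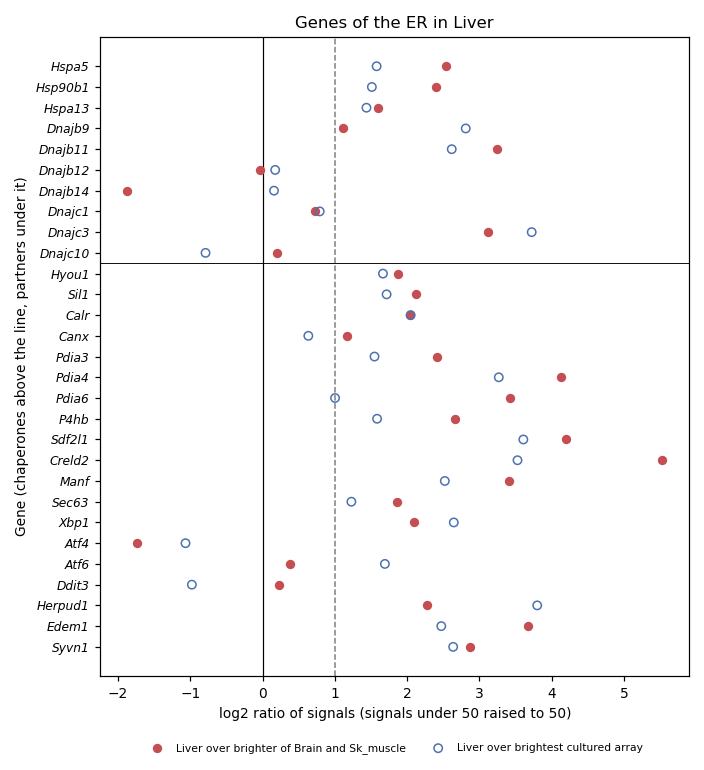
Log2 ratio of the Liver signal to the brighter of Brain and Sk_muscle (filled circles) and to the brightest of the 4 cultured arrays (open circles), with signals under 50 raised to 50, for 10 ER chaperones (upper rows) and 19 ER folding partners (lower rows). Most points lie to the right of the dashed line at 2-fold, while Atf4 lies to the left of 0 in both ratios.

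Mitochondrial chaperones were lower in Brain. Of 7 genes, 4 were lower in Brain than in both other tissues (against 4.08% of all genes) and 0 higher (against 10.8%). Their median log2 ratio was -1.69 against 0.0. Hspa9, Hspd1 and Hspe1, 3 of the 4, were lower in Brain than in all 6 other arrays (against 0.995%). Hspa9, the mitochondrial Hsp70 that pulls proteins through the import channel, gave signals of 2970.3 in SK7_ESC, 1130.5 in Ect, 1637 in End, 1366 in Pme, 448 in Brain, 1713 in Liver and 2863 in Sk_muscle. Brain was 2.53-fold below Ect, the next lowest. With the mean over probe sets, Hspa9 and Dnaja3 lost their calls and 2 of the 4 genes were left. Ect and Pme were in turn 2.63-fold and 2.17-fold below SK7_ESC. Hspd1, the chaperonin Hsp60, had 4528 in SK7_ESC, 3523 in Ect, 3538 in End, 3225 in Pme, 907 in Brain, 4733 in Liver and 2327 in Sk_muscle, and Hspe1, its lid Hsp10, had 3585 in SK7_ESC, 2563 in Ect, 3067 in End, 2495 in Pme, 1043 in Brain, 3673 in Liver and 5107 in Sk_muscle. Brain was lowest in both, by 2.57-fold and 2.39-fold. Hspd1 was highest in Liver, 1.05-fold above SK7_ESC, and Hspe1 in Sk_muscle, 1.39-fold above Liver. Their promoter windows share the match to the heat shock element shown above, and its part in these signals was not tested.

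The J proteins of mitochondria were less uniform. Dnaja3, which serves Hspa9 in the matrix, had 236 in SK7_ESC, 128 in Ect, 172 in End, 158 in Pme, 278 in Brain, 982 in Liver and 819.7 in Sk_muscle, so that Liver and Sk_muscle stood above the rest. Dnajc15, a J protein of the import motor, had 446 in SK7_ESC, 262 in Ect, 355 in End, 257 in Pme, 476 in Brain, 645 in Liver and 2364 in Sk_muscle, with Sk_muscle 3.67-fold above Liver. Dnajc30 went against the group, with 83.0 in SK7_ESC, 197 in Ect, 118 in End, 163 in Pme, 345 in Brain, 251 in Liver and 305 in Sk_muscle: Brain was highest, and Ect was 2.37-fold above SK7_ESC. Dnajc11 was lowest in Brain at 91.5 and highest in SK7_ESC at 379, and it was not called between the tissues. Among 7 partner genes of the same compartment, Grpel1, Trap1 and Clpx were lower in Brain than in both other tissues (against 4.08% of all genes). None was higher (against 10.8%), and the median log2 ratio of the list was -1.18 against 0.0. Clpx, the unfoldase of the Clp protease, had 269.9 in SK7_ESC, 176 in Ect, 248 in End, 220.3 in Pme, 147 in Brain, 1896 in Liver and 1011 in Sk_muscle, and Grpel1, which exchanges the nucleotide of Hspa9, had 723 in SK7_ESC, 371 in Ect, 526 in End, 396 in Pme, 264 in Brain, 1245 in Liver and 1403 in Sk_muscle.

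Small heat shock proteins gave the widest range of any group, and most of it lay in Sk_muscle. Of 9 genes, 6 were higher in Sk_muscle than in both other tissues (against 7.47% of all genes) and 0 lower (against 2.62%). Their median log2 ratio was 3.75 against 0.0, and 5 were higher there than in all 6 other arrays (against 5%). Hspb6, known from striated and smooth muscle, gave signals of 14.7 in SK7_ESC, 30.6 in Ect, 14.4 in End, 85.9 in Pme, 29.8 in Brain, 70.8 in Liver and 9224 in Sk_muscle, so that Sk_muscle was 107-fold above the next array. Hspb7, a partner of filamin C, was above background in Sk_muscle alone at 2914, at least 58.3-fold above the others. Hspb3 was likewise above background only there, at 938, with Brain at 44.7, a lead of at least 18.8-fold. Without probe sets that may read several transcripts, 3 genes of the group were higher in Sk_muscle, since Hspb1 and Hspb2 were then not measured and the remaining probe set of Cryab was under background.

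Cryab, a lens crystallin that also binds desmin filaments in muscle, gave signals of 46.5 in SK7_ESC, 90.4 in Ect, 8.9 in End, 226 in Pme, 686 in Brain, 28.8 in Liver and 10203 in Sk_muscle. Sk_muscle was 14.9-fold above Brain, and Pme was at least 4.52-fold above SK7_ESC. Its neighbor Hspb2, which overlaps it in the RefSeq annotation, had 17.4 in SK7_ESC, 29.8 in Ect, 13.6 in End, 90.5 in Pme, 18.4 in Brain, 4.7 in Liver and 445 in Sk_muscle, with Sk_muscle 4.91-fold above Pme. The order of the first 2 arrays thus differed between the neighbors: Sk_muscle then Brain for Cryab, and Sk_muscle then Pme for Hspb2. Skeletal fiber markers summed to 51605 in Sk_muscle and cardiac markers to 50.4, while fibroblast markers summed to 8886 (4 of 4 above background), adipocyte markers to 7341 (2 of 2), smooth muscle markers to 2292 (3 of 4) and endothelial markers to 941 (4 of 4). The part of these other cells in the Sk_muscle signals was not tested.

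Hspb1, also called Hsp25 in the mouse, had the largest ratios between ES cells and the germ layers. It gave signals of 2866 in SK7_ESC, 60.3 in Ect, 108 in End, 186 in Pme, 196 in Brain, 824 in Liver and 5424 in Sk_muscle. Ect was 47.5-fold, End 26.5-fold and Pme 15.4-fold below SK7_ESC, and the other probe set of the gene read 2342 in SK7_ESC and 34.3, 72.9 and 155 in Ect, End and Pme. Pluripotency markers summed to 12560.3 in SK7_ESC and to 50.1, 402 and 98.8 in Ect, End and Pme, and their part in the Hspb1 signal was not tested. Sk_muscle, at 6.58-fold above Liver, was the only array higher than SK7_ESC. Hspb8, which works with Bag3 to clear damaged muscle proteins, had 179 in SK7_ESC, 44.3 in Ect, 20.3 in End, 103 in Pme, 63.0 in Brain, 1459 in Liver and 2226 in Sk_muscle. Ect and End were both at least 3.58-fold below SK7_ESC, and Sk_muscle and Liver were both far above Brain, which was 23.2-fold below Liver. Hspb11 did not follow the group, with 101 in Liver and 294 in Pme as its lowest and highest signals, and its product is known as a part of the intraflagellar transport complex. Hspb9 stayed at 7.4 or less in all arrays.

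**Figure D5:**
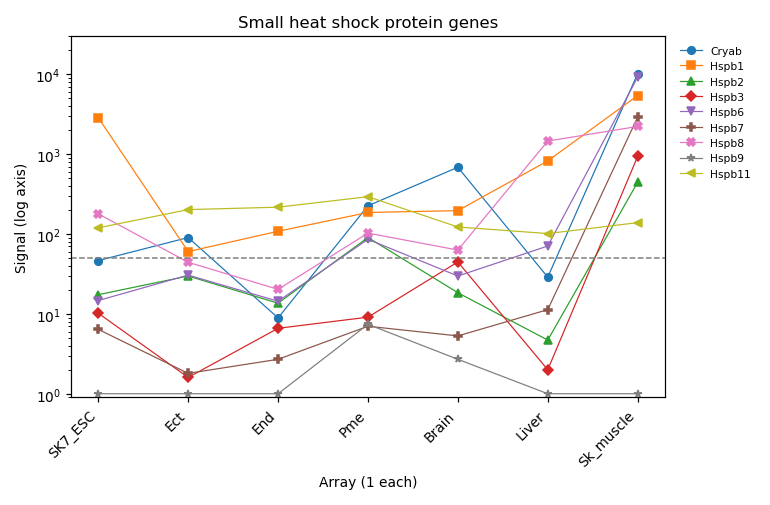
Signal (log axis, signals under 1 drawn as 1) of the 9 small heat shock protein genes in the 7 arrays, 1 each; the dashed line marks a signal of 50, and thin lines only join the points of a gene. Cryab, Hspb2, Hspb3, Hspb6 and Hspb7 are at least 4.91-fold higher in Sk_muscle than in any other array, and Hspb1 goes from 2866 in SK7_ESC to between 60.3 and 186 in the germ layers.

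Genes known to be induced by heat formed a list of 11. Pme had 3 of these higher than SK7_ESC (Hspa1a, Hspa1b and Cryab) and 1 lower (Hspb1), where 6.74% and 4.55% of all genes were called. Ect had 0 and 1 (against 6.62% and 4.89%), and End had 0 and 2 (against 4.89% and 3.81%). Their median log2 ratios were -0.16 (Ect), -0.23 (End) and -0.22 (Pme), against 0.0 over all genes. Hsf2 and Hsf4, heat shock factors, were under background in all 7 arrays, at 26.2 or less. Hsf1 was not analyzed here. Of 7 genes known mainly from germ cells, Hspa4l was called higher in Ect than in SK7_ESC (against 6.62%). Hspa2 and Hspa4l were called higher in Brain than in both other tissues (against 10.8%).

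Cytosolic co-chaperones feed clients to Hsp70 and Hsp90 or regulate them. Of 18 such genes, 2 were higher in Sk_muscle than in both other tissues (Unc45b and Bag3, against 7.47% of all genes) and 1 was lower (Bag4, against 2.62%). In Brain 1 was higher (Tomm34, against 10.8%) and 3 were lower (Ahsa1, Fkbp5 and Bag3, against 4.08%). In Liver 0 were higher (against 7.71%) and 0 lower (against 4.18%). Bag2 and Bag3 were higher in End than in SK7_ESC (against 4.89%), and Bag2 was higher in Pme (against 6.74%). Unc45b, a chaperone of myosin, had 1812 in Sk_muscle and under 50 in the other arrays, at least 36.2-fold apart. Bag3, the partner of Hspb8, had 113 in SK7_ESC, 72.5 in Ect, 339 in End, 209.6 in Pme, 47.8 in Brain, 365 in Liver and 835 in Sk_muscle, with Sk_muscle 2.29-fold above Liver. Fkbp5, an Hsp90 partner in steroid receptor complexes, was lower in all 3 layers than in SK7_ESC, with 571 in SK7_ESC, 261 in Ect, 234 in End, 140.4 in Pme, 183 in Brain, 489 in Liver and 894 in Sk_muscle. In the chaperonin TRiC, which folds actin and tubulin, 3 of 9 genes (Cct2, Cct5 and Cct8) were at least 2-fold higher in every cultured array than in every adult array. The share of all genes was 4.19%, and the median log2 ratio was 1.35 over the list against 0.0. Cct2 had 4497 in SK7_ESC, 3495 in Ect, 4608 in End, 3212 in Pme, 995 in Brain, 1264 in Liver and 1496 in Sk_muscle. Prefoldin, which hands clients to TRiC, had 2 of 5 genes lower in Liver than in both other tissues (Pfdn2 and Vbp1, against 4.18% of all genes). In Sk_muscle 1 was higher than in both others (Pfdn1, against 7.47%).

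Probe sets of a gene gave a check within each array. Of 44 chaperone genes with at least 2 probe sets above background, 30 had the same array highest in all of them and 14 did not. Of 104 calls over all comparisons, 73 had another probe set above background, and in 43 of these every other probe set was called the same way. The single call with an opposite one was Dnajb6 in Sk_muscle.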

How the data were processed

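Total RNA of 7 samples was labeled from an oligo-dT primer and hybridized to Affymetrix Mouse Genome 430 2.0 arrays, 1 array a sample. The deposited values are linear signal intensities of 45101 probe sets, which the authors normalized globally with the average signal of an array set to 100. How the probes were summarized was not given in the sources used. The labels name RNeasy and the methods TRIzol for the RNA. The plain mean of an array lay between 141 and 204 and its median between 15.6 and 25.0. Precision is limited by having 1 array a group, from which no error and no test could be computed.

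Gene names came from the platform annotation: 34958 probe sets had 1 symbol, 932 had several and 9211 were unnamed. A gene was represented by whichever of its single-symbol probe sets was brightest on average (log2 scale, 7 arrays), and 69 of 69 chaperone genes matched RefSeq by Entrez identifier with 0 symbols changed. They had 170 probe sets in all, 46 genes having several. Signals under 50 were raised to 50, and a ratio of at least 2 was called. The calling step was tested on simulated data.

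The chaperone genes and all lists were chosen with earlier results of these data known. All 7 values are given for the gene with the highest mean signal of each role and up to 4 genes with the widest range, for genes going against their group and for others a comparison turned on, and partner genes came from lists, by the widest range or because they were called. Coordinates are those of the promoter table (GRCm38.p6), and no protein sequence was used here, so protein motifs were not searched. Hsp90ab1, Hsf1, Dnajc19 and Ptges3 were not analyzed here. Python 3.11.15, numpy 2.4.6, pandas 2.3.3 and matplotlib 3.10.9 were used. The alternatives tried were a limit of 3-fold, a background of 20, gene values from the geometric mean over probe sets, probe sets that may read several transcripts left out, and arrays brought either to equal medians or to equal quantiles.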

Additional observations from a re-analysis of the deposited data

Results flagged for a closer look

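Hspa1b moved in opposite directions in different germ layers. Its log2 ratio to SK7_ESC was 2.12 in Pme and -1.31 in End, the latter with the End signal raised to 50. The End value became -0.73 with the mean over probe sets and -0.16 without probe sets that may read several transcripts. The difference was not tested, since each layer was 1 array, and both ratios share the SK7_ESC array. The neighboring copy Hspa1a was also above background in Pme, at 131, and not in End, at 12.8.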

How the results depend on the processing

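Over all comparisons, 104 calls were made on the chaperone genes. A background of 20 kept 104 of them and added 14, and quantile normalization kept 95. Scaling to the same median kept 97 and added 20, the geometric mean of probe sets kept 70, a 3-fold limit kept 57, and leaving out probe sets that may read several transcripts kept 80, with 12 not measured. In the deposited signals, the median gene lay 0.14 (Ect), 0.1 (Pme), 0.26 (Brain), 0.22 (Liver) and 0.24 (Sk_muscle) on the log2 scale above SK7_ESC, and after scaling to the same median these became -0.08, -0.13, -0.42, -0.1 and -0.05. That scaling gave 10 genes lower in Ect, 9 lower in Pme, and 4 higher and 1 lower in every cultured array. For all genes the counts were 1356 lower in Ect, 1292 lower in Pme, and 1031 higher and 70 lower in every cultured array. Quantile normalization gave 2 genes lower in Sk_muscle. The geometric mean gave 2 higher and 2 lower in End, 3 higher and 2 lower in Pme, 4 lower in Brain, 2 lower in Sk_muscle and 2 mitochondrial chaperones lower in Brain. It also turned the log2 ratio of Hspa4 in Brain from -1.38 to 0.38, with a probe set under background in every array among those averaged. The 2 other probe sets of Hspa4 above background were not called lower in Brain. Without probe sets that may read several transcripts, 2 were lower in End, 3 lower in Pme, 7 higher and 2 lower in Sk_muscle, and 3 small heat shock proteins were higher in Sk_muscle. Hspa5, Hsp90b1, Hspb1, Hspb2, Hsph1 and Dnajb2 were then not measured, and Cryab lost its call because its remaining probe set was under background. The 3-fold limit left 3 higher and 3 lower in Ect, 0 higher in End, 3 higher and 3 lower in Pme, 3 higher and 4 lower in Brain, 4 lower in Liver, 0 lower in Sk_muscle, 1 higher and 0 lower in every cultured array, 14 highest in 1 array and 2 mitochondrial chaperones lower in Brain. Over all genes, the 3-fold limit, the geometric mean and leaving out probe sets that may read several transcripts also gave fewer calls. This held in every comparison of layers with SK7_ESC, of tissues and of cultured with adult arrays. Other causes were not tested. No paired analysis was possible because each group had 1 array, and leaving out a replicate was not possible for the same reason.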
